A study of Homo sapiens with 2 samples.

Results

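The 32 genes described here encode the machinery of the G2 phase and of mitosis, and were chosen by name. They were read in U251, an established cell line from a human glioma, with the Affymetrix HG-U133 Plus 2.0 array, whose short probes lie toward the 3' end of each transcript. The comparison is of 1 array of U251 cells transfected with has-miR-31, a microRNA, against 1 array of U251 cells labelled as control for that transfection. Both cultures were grown in DMEM with serum, and labelling started from 250 ng of total RNA. The labels do not say what, if anything, the control cells were transfected with. Nor do they say what carried the microRNA or how long before harvest it was given. The study asked which genes differ when miR-31 is over-expressed in glioma cells. Each gene was represented by 1 probe set, the one with the highest mean level among those annotated to that symbol alone. All 32 genes were found, all 32 passed a minimum mean level corresponding to an intensity of 62.7, and they are set beside 11787 genes that passed the same minimum. With 1 array per group there is no spread between samples, so no test was possible and no p-value is given.

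Entry into mitosis is driven by the kinase CDK1 bound to cyclin B or cyclin A, which other kinases (PLK1 and the Aurora kinases) help to activate and carry forward. Kinesin motors and their partners then build the spindle, and kinetochores attach chromosomes to it. A checkpoint holds back the anaphase-promoting complex (APC/C), a ubiquitin ligase that ends mitosis by marking cyclins and other proteins for destruction, until attachment is complete. Transcripts of these genes accumulate late in the cell cycle, and their summed level in a culture is widely read as a sign of proliferation. A microRNA silences messenger RNAs that pair with its seed, bases 2 to 8. The mature miR-31 from the RefSeq table (GRCh38.p14, chr9:21512158-21512178, minus strand) is shown because it is the agent that sets the arrays apart, with the seed in capitals. The labels name no arm, and the table lists this one. The level of the mature microRNA was not analysed here.
hsa-miR-31-5p: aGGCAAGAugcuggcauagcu

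The G2 and mitosis genes were lower in the miR-31 array by small amounts. All 32 had a log2 ratio (miR-31 array minus control array, on log2(intensity + 16)) below 0, against 46.8% of all genes compared. After quantile normalization 31 of 32 did, beside 51.0% of all genes, with HMMR at 0.0011. The median ratio was -0.34, while the median of all genes was 0.03. At least 20% lower on this scale were 19 of the 32 genes, beside 17.8% of all genes. The larger differences were fewer: 5 of the 32 were at least 1.5-fold lower (6.73% of all genes), and 0 were at least 2-fold lower (1.58% of all genes). None was at least 25% higher, beside 24.4% of all genes. As linear intensities, the miR-31 array read between 55.7% (AURKB) and 96.0% (HMMR) of the control array, with a median of 79.0%. In a culture, fewer cells in G2 and mitosis and less of these RNAs per cell cannot be told apart.

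**Figure D1:**
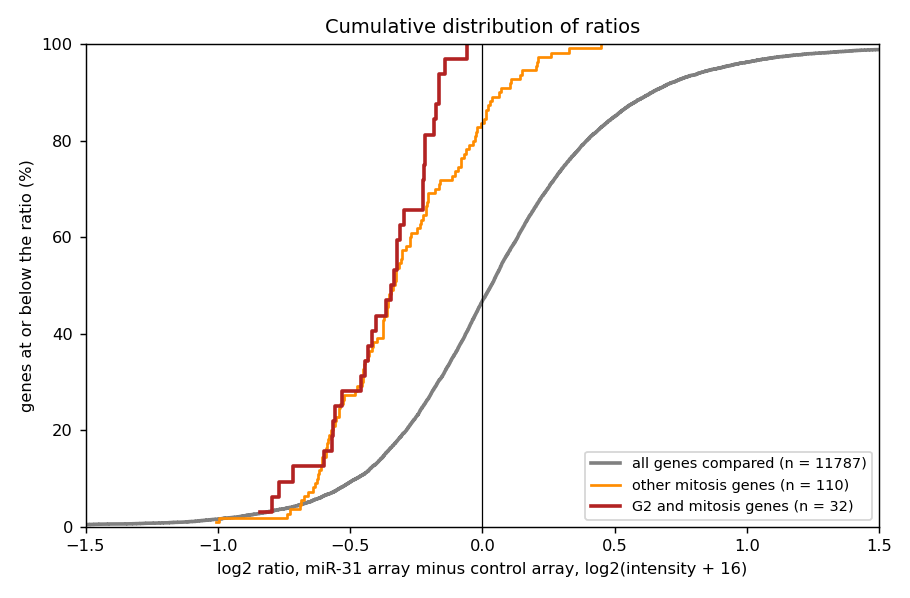
Cumulative share of genes (vertical axis, percent) at or below a given log2 ratio of the miR-31 array over the control array (horizontal axis) for the 32 G2 and mitosis genes, 110 other mitosis genes and all 11787 genes compared. The curve of the 32 genes reaches 100% left of 0, and its median is -0.34 against 0.03 for all genes.

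The gap to other genes kept its sign under every scaling, while its size and the counts past a fold changed. The difference between the median of the 32 genes and that of all genes was -0.37 on the deposited scale, -0.29 after quantile normalization and -0.30 after a level-dependent trend was removed. Centring shifts every gene alike, so it leaves this difference at -0.37 by construction. Both classes of spike-in control RNA were higher in the miR-31 array, the bacterial hybridisation controls by a median of 0.19 over 18 probe sets and the poly-A controls by 0.55 over 24. Centred on the first, the 32 genes had a median of -0.53 and 31 were at least 20% lower, beside 33.1% of all genes. With the poly-A controls as the centre the median was -0.89 and 32 were at least 20% lower, beside 68.7% of all genes. Of all genes at least 20% lower or 25% higher, 42.3% were lower on the deposited scale, 69.6% after centring on the hybridisation controls and 92.9% after centring on the poly-A controls. Among the 7713 genes at or above the 75th percentile of level, which include 31 of the 32, 51.1% were lower and 17.3% were at least 20% lower.

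Agreement between probe sets of a gene is the only gauge of measurement error here. Across 1879 genes with exactly 2 probe sets at or above the 75th percentile of level, the SD of a single log2 ratio was 0.21, and it was 0.33 over 3142 genes at the lower level minimum. This SD leaves out any difference between cultures. The 32 genes had 65 probe sets, of which 59 passed the level minimum, and 58 of these 59 were lower in the miR-31 array. These 59 include the 32 that represent their genes, which were already counted above. The share lower among all probe sets above the minimum was not computed, so these counts of probe sets have no background beside them. The probe sets that did not represent their gene numbered 27, and 26 of them were lower, with a median of -0.41. The exception belonged to BUB1, whose other kept probe set read 184 on the control array and 193 with miR-31 (0.06), beside -0.43 on its brightest. Of the 6 probe sets under the minimum 3 were lower. A single probe set reads 14 of the genes, whose ratios have no such check. CCNB2 has no other probe set above the minimum either, and its dim ones disagreed, at 0.48 and -0.74.

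**Figure D2:**
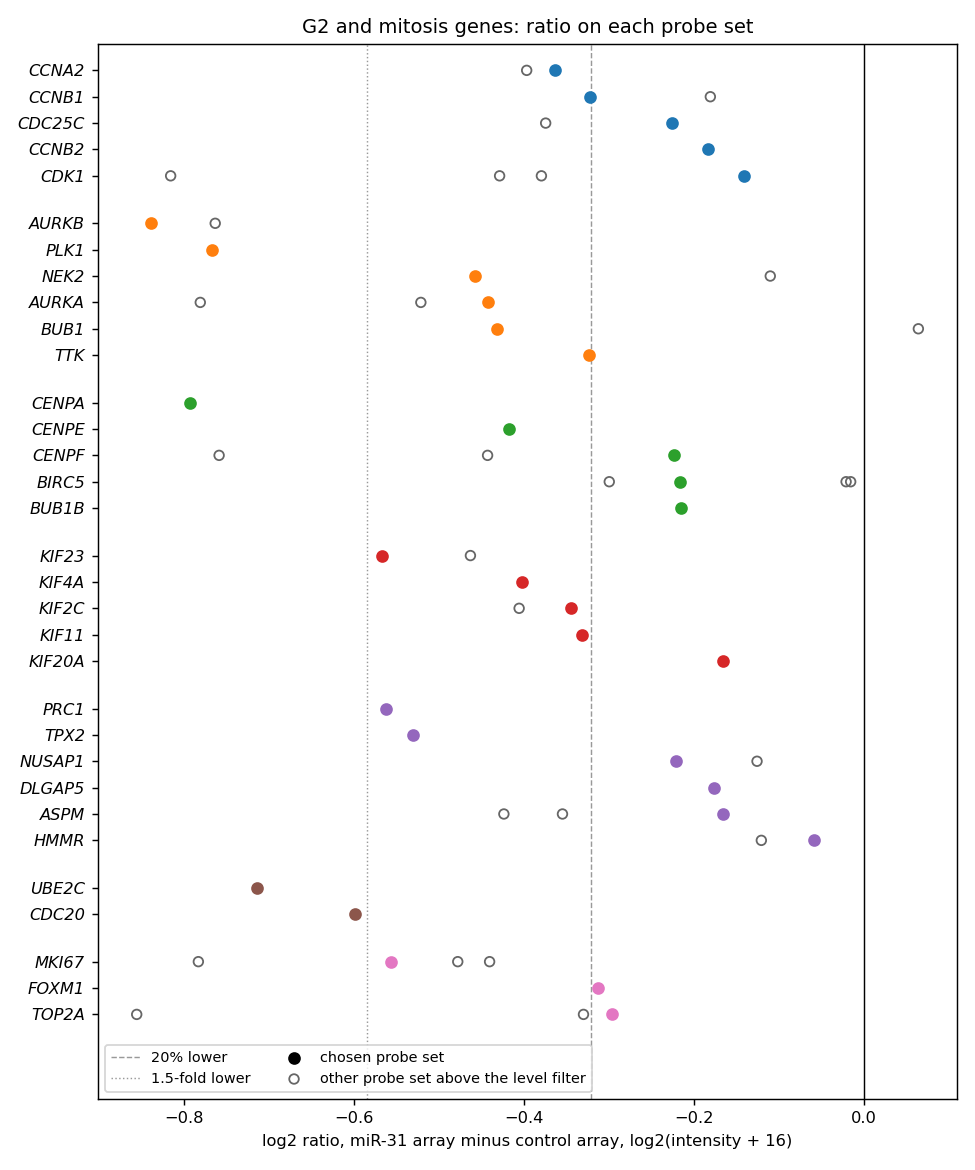
Log2 ratio of the miR-31 array over the control array (horizontal axis) for every probe set above the level minimum of the 32 genes (rows, grouped by role). Filled points are the probe set that represents the gene, coloured by role, open points its other probe sets, and dashed and dotted lines mark 20% and 1.5-fold lower. The filled points lie between -0.84 and -0.06, and 1 open point, of BUB1, lies above 0.

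The promoters of these genes share sequence that the choice of members did not use. G2 and mitosis genes are textbook targets of the DREAM and B-MYB complexes, which bind a cell cycle homology region (CHR, letters TTTGAA), and of NF-Y, which binds the letters CCAAT. Of the 32 genes 26 have a promoter in the RefSeq table (GRCh38.p14), a window of 250 bases before and 50 after the gene's start. TPX2, FOXM1, TTK, AURKA, BIRC5 and UBE2C were not searched. Matches were taken on either strand, a gene with several listed promoters counted if any of them matched, and the last T of the one motif may be the first of the other. The letters CCAAT occurred in 23 of the 26 (88.5%), against 43.8% of 9713 array genes with a promoter listed and 39.7% of all 27305 genes in the table. Counted by single promoter, 34.6% of all 35116 hold it. TTTGAA occurred in 18 of 26 (69.2%), against 14.1% of array genes, 18.2% of all genes and 15.2% of single promoters. Both together were found in 17 of 26 (65.4%), against 5.86% of array genes, 7.26% of all genes and 5.9% of single promoters. The motifs were not particular to the 32. Of 98 other mitosis genes with a promoter listed, 60.2% held CCAAT, 50% TTTGAA and 28.6% both. The matches were also concentrated in position: 21 of 26 genes had CCAAT beginning between 100 and 51 bases before the start, and 11 of 26 had TTTGAA beginning within the last 50 bases before it. Within the 26 genes the motif did not go with a larger difference. The 18 with TTTGAA had a median ratio of -0.26 and the 8 without it -0.39. A match is a string of letters, not evidence of binding in these cells. Only these exact letters were searched, so a gene without TTTGAA is not shown to lack a CHR.

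**Figure D3:**
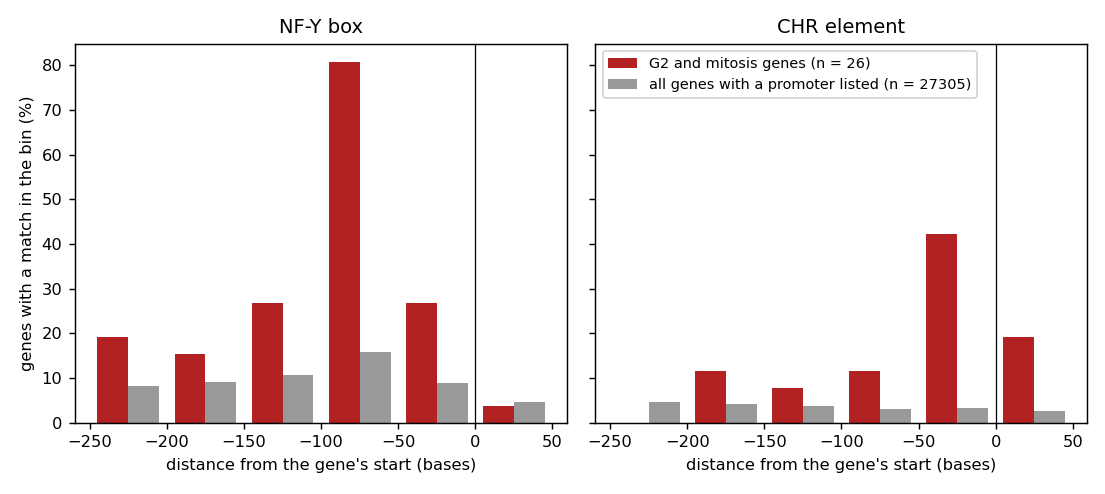
Share of genes (vertical axis, percent) with the exact letters CCAAT (NF-Y box, left) or TTTGAA (CHR element, right) beginning in each 50-base bin. Bins are relative to the gene's start (horizontal axis), for 26 G2 and mitosis genes and all 27305 genes with a promoter listed. The NF-Y box peaks from 100 to 51 bases before the start, at 80.8% against 15.8%, and the CHR element in the last 50 bases before it, at 42.3% against 3.22%.

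The 250 bases before the start are printed for 6 genes. Of these 5 hold both motifs, and 4 of the 5 are among the genes with the lowest ratios. AURKB, with the lowest ratio on the deposited scale, holds CCAAT but not the letters TTTGAA. Capitals mark CCAAT and TTTGAA, or ATTGG and TTCAAA where the match is on the other strand. PLK1 and CCNB2 each have TTTGAA beginning 29 bases before the start, downstream of CCAAT, although their ratios were -0.77 and -0.18. AURKB has a second listed start nearby, which is not printed.
PLK1 (chr16:23678639-23678888, plus strand): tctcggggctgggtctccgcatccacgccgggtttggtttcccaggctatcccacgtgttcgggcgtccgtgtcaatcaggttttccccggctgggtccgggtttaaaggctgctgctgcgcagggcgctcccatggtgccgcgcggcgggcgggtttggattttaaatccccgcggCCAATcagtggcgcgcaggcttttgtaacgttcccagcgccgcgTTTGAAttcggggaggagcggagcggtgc
CENPA (chr2:26785806-26786055, plus strand): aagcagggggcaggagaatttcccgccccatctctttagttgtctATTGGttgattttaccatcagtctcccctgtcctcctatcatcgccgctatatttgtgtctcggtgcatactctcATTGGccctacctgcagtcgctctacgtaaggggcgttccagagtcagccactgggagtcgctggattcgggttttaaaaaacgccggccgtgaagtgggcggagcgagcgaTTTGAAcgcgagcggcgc
CDC20 (chr1:43358731-43358980, plus strand): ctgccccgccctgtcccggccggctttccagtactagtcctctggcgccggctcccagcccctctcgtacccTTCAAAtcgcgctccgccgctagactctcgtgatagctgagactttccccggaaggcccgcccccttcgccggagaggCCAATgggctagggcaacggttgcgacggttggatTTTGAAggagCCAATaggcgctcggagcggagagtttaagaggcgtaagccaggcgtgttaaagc
KIF23 (chr15:69414099-69414348, plus strand): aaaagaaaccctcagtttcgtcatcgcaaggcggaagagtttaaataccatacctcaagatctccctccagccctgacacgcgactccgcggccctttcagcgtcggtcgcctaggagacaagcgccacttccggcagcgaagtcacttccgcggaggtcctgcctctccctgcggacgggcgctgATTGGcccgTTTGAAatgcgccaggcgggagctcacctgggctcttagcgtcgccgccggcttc
CCNB2 (chr15:59104896-59105145, plus strand): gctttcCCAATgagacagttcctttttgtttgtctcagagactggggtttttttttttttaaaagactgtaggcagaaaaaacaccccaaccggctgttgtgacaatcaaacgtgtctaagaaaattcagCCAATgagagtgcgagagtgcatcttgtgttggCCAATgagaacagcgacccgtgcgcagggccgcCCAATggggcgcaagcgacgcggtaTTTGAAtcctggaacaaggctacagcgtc
AURKB (chr17:8210226-8210475, minus strand): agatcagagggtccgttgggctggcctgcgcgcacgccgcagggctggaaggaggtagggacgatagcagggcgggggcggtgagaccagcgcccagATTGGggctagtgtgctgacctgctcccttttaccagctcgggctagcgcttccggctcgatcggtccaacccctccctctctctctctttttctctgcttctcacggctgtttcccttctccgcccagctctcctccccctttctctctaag

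Cyclins and the direct regulators of CDK1 showed some of the smallest differences, with a median of -0.23 over 5 genes. CCNA2, the cyclin of S phase and G2, read 4376 on the control array and 3398 on the miR-31 array (-0.36), and its other probe set had -0.40. CCNB1, the main mitotic cyclin, read 12391 and 9907 (-0.32, with -0.18 on another probe set). CCNB2, a second B-type cyclin, read 9924 and 8736 (-0.18). Only CCNA2 and CCNB1 of this group were at least 20% lower. CDK1 itself read 13693 and 12418 on its brightest probe set (-0.14), the smallest difference after HMMR. Its 3 other probe sets were lower by more, at -0.38, -0.43 and -0.82. CDC25C, the phosphatase that removes inhibitory phosphates from CDK1, read 921 and 785 (-0.23), with -0.37 on another probe set.

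The mitotic kinases had a median of -0.45, and all 6 were at least 20% lower on the brightest probe set. AURKB is the kinase of the chromosomal passenger complex, which corrects faulty attachments. On the deposited scale AURKB had the lowest ratio of the 32 genes, from 3431 on the control array to 1911 with miR-31 (-0.84). Its second probe set, with 554 and 320, had -0.76. PLK1, which promotes mitotic entry and centrosome maturation, read 361 and 206 (-0.77) on its only probe set. Its ratio was below that of AURKB after quantile normalization (-0.90 against -0.82). The same held after the level-dependent trend was removed (-0.90 against -0.81). Of the 32 genes PLK1 alone lay below the 75th percentile of level. AURKA, the Aurora kinase of centrosomes and spindle poles, read 7066 and 5195 (-0.44), and its 2 other probe sets had -0.52 and -0.78. The ratio of AURKB thus lay below that of AURKA on the brightest probe set of each, while the dimmest kept probe set of AURKA, with 114 and 59.5, came close to it. NEK2, which splits centrosomes, read 3858 and 2805 (-0.46), but its other probe set had -0.11. BUB1, a checkpoint kinase, read 3825 and 2831 (-0.43). TTK, the checkpoint kinase also called MPS1, had 2745 and 2189 (-0.32). With NEK2 and BUB1, the second probe set was not 20% lower.

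Genes of the centromere and kinetochore spread widely, with a median of -0.22 over 5 genes, which is -0.42 when probe sets are averaged and -0.36 without _s_at and _x_at probe sets. CENPA, the histone H3 variant that marks centromeres, read 2993 on the control array and 1720 with miR-31 (-0.79). It is read by a single probe set of the _x_at type, which may cross-react with other transcripts, and 1 further probe set annotated to CENPA together with another gene was not used. CENPE, a kinetochore motor, read 2223 and 1659 (-0.42). These were the only members of the group at least 20% lower. CENPF, a large kinetochore protein, read 6696 and 5734 (-0.22), with -0.44 and -0.76 on its other probe sets. BUB1B, the checkpoint protein BUBR1, had 4685 and 4031 (-0.22). BIRC5, the survivin subunit of the chromosomal passenger complex, read 3870 and 3330 (-0.22), and its 4 probe sets lay between -0.30 and -0.02. AURKB and BIRC5 encode partners in one complex, and their ratios were -0.84 and -0.22. CDCA8 (-0.54) and INCENP (-0.33), genes of the same complex looked at after their values were seen, lay between them.

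**Figure D4:**
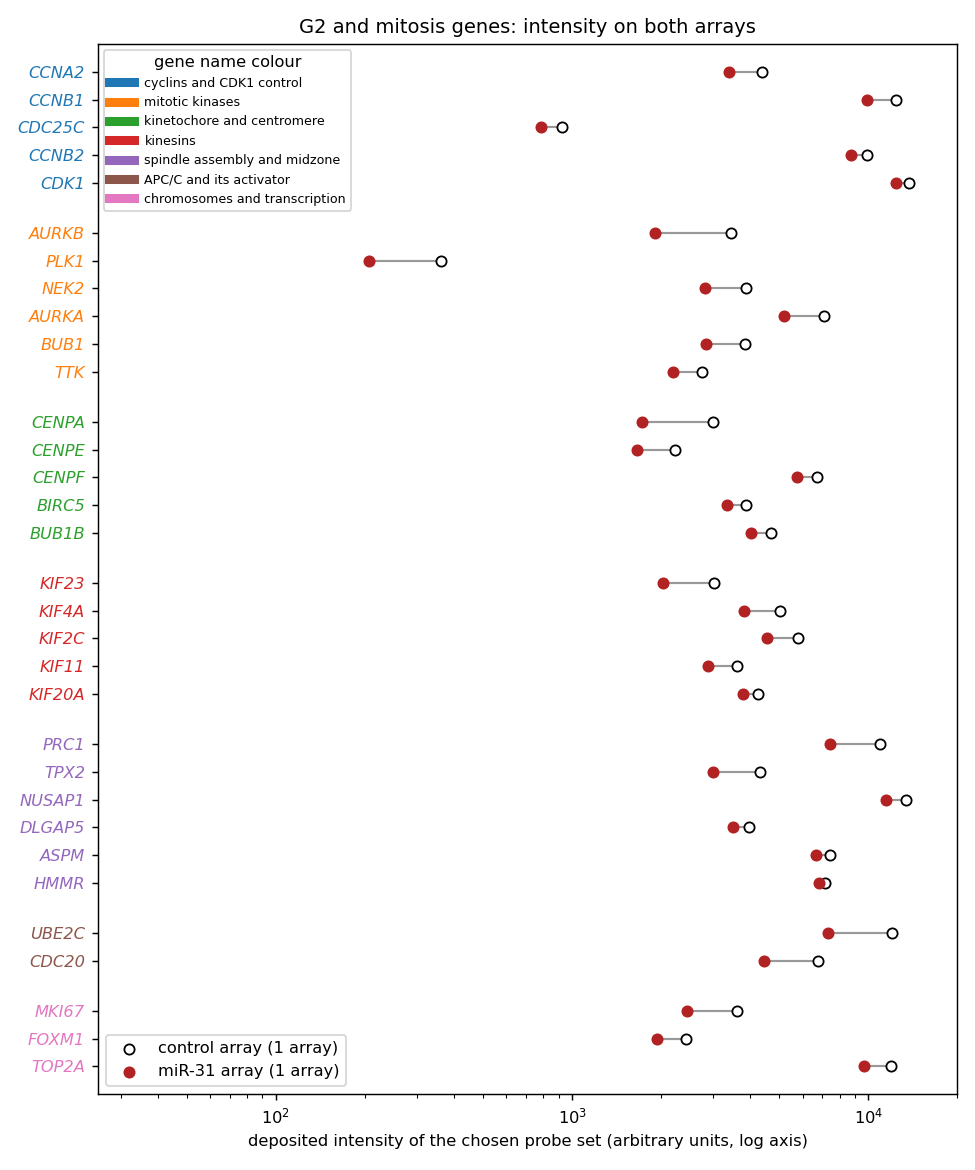
Deposited intensity (horizontal axis, arbitrary units, log scale) of the probe set that represents each of the 32 genes (rows, grouped and coloured by role) in the control array (open points) and the miR-31 array (filled points), 1 array each. In every row the filled point lies left of the open one, and the widest gap is that of AURKB, from 3431 to 1911. Positions should be compared within a row, since probe sets differ in brightness.

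The mitotic kinesins had a median of -0.34 over 5 genes, 4 of them at least 20% lower. KIF23, the motor of the centralspindlin complex at the spindle midzone, read 3018 and 2031 (-0.57), and -0.46 on its other probe set. KIF4A, a chromosome-bound motor that also works at the midzone, read 5021 and 3794 (-0.40). KIF2C, which depolymerises microtubules at centromeres, had 5805 and 4567 (-0.34, with -0.41 on its other probe set). The KIF11 motor, which pushes spindle poles apart, read 3615 and 2867 (-0.33). KIF20A, a motor needed for cytokinesis, read 4252 and 3789 (-0.17) and was the 1 member short of 20% lower.

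Among spindle assembly and midzone proteins a pair stood lower than the rest, and the median over 6 genes was -0.20. PRC1, which bundles midzone microtubules and is a partner of KIF4A, read 10956 and 7410 (-0.56). TPX2, an activator of AURKA, read 4314 and 2980 (-0.53). The other 4 were not 20% lower on their brightest probe set. They were NUSAP1 (13416 and 11505, ratio -0.22), DLGAP5 (3954 and 3496, -0.18), ASPM (7450 and 6638, -0.17) and HMMR (7116 and 6831, -0.06), which bind microtubules or spindle poles. ASPM had -0.35 and -0.42 on its other probe sets, and HMMR had -0.12.

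Both genes of the APC/C pathway among the 32 were at least 1.5-fold lower. UBE2C, the ubiquitin-conjugating enzyme that serves the APC/C, read 12033 and 7327 (-0.71). CDC20, which activates the APC/C and is the target of the checkpoint, read 6761 and 4460 (-0.60). Each has a single probe set. With AURKB, CENPA and PLK1 they make up the 5 genes past 1.5-fold. Just inside the line of 20% lay CCNB1 (-0.32) and TTK (-0.32), and just outside it FOXM1 (-0.31) and TOP2A (-0.30).

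The remaining 3 genes act on chromosomes or on transcription, with a median of -0.31, which is -0.49 when probe sets are averaged. MKI67, the proliferation marker Ki-67, which coats mitotic chromosomes, read 3614 and 2452 (-0.56), and its 4 probe sets lay between -0.78 and -0.44, so each was at least 20% lower. TOP2A, the topoisomerase that untangles sister chromatids, read 11924 and 9707 (-0.30), with -0.33 and -0.86 on its other probe sets. FOXM1, a transcription factor that activates many of these genes, read 2415 and 1940 (-0.31) on a single _x_at probe set. In 10 of the 17 genes with another probe set above the level minimum, the brightest probe set had a smaller difference than the mean of the others. When all probe sets of each gene were averaged, the median of the 32 genes was -0.38.

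Genes of the same processes that are not among the 32 were mostly lower too. Their median was -0.33 over 110 genes, of which 92 were lower, 18 higher and 59 at least 20% lower. Of 25 other kinetochore and centromere genes 23 were lower and 18 at least 20% lower (median -0.45). SKA3, of the complex that keeps kinetochores on microtubules, read 1202 and 594 (-0.997), and OIP5, which helps to load CENPA, 3874 and 2336 (-0.73). Condensin, cohesin and separase genes had a median of -0.37, with 18 of 19 lower and 11 at least 20% lower, and -0.22 when probe sets are averaged. NCAPG2, a condensin subunit, had -0.63, and STAG1, a cohesin subunit, -0.66, although its 3 probe sets ran from -0.75 to 0.76.

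Of 15 further regulators of CDK1 11 were lower, 4 higher and 9 at least 20% lower, with a median of -0.40, which is -0.25 without _s_at and _x_at probe sets. Those lower include CDC25B (-0.64), a phosphatase that activates CDK1, and CKS1B (-0.61), a CDK-binding subunit. Of 19 other spindle and cytokinesis genes 16 were lower, 3 higher and 11 at least 20% lower (median -0.34). ARHGAP11A had -0.62 and ANLN, the scaffold protein anillin, -0.58. The general tubulin genes TUBB (0.07) and TUBA1B (0.14), looked at after their values were seen, were not among those lower on the deposited scale, and both fall below 0 when centred on either class of spike-in control.

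Kinesins of mitosis and kinesins of cargo transport had different medians on these arrays. The 7 other kinesins of mitosis were all lower, with a median of -0.33 and 4 at least 20% lower, KIF18B (-0.62) and KIF18A (-0.61) by the most. Kinesins and light chains of cargo transport had a median of -0.02 over 15 genes, with 8 lower (53.3%, beside 46.8% of all genes) and 7 higher. Of these KIF16B had 0.86, from a control intensity of 46.1, and KIF5A had -0.54. The transport median is 0.05 when probe sets are averaged.

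The list of other APC/C genes held 10 subunits of the complex, with a median of -0.03. Of these 7 were lower, 3 higher and 0 at least 20% lower or 25% higher. Subunits that were not on the list, looked at after their values were seen, were above 0 on the deposited scale: ANAPC13 had 0.05, ANAPC16 0.36 and ANAPC15 0.40, the last 2 at least 25% higher. The difference between the subunits and UBE2C or CDC20 was not tested. CDC27 had the lowest ratio among them, -0.32, just short of 20% lower, with 4 probe sets up to 0.04. FBXO5, the APC/C inhibitor EMI1, read 4236 and 2779 (-0.61, with -0.29 on another probe set). Over these subunits, FBXO5, FZR1 and UBE2S together the median was -0.05, and 0.03 with the mean of probe sets and without _s_at and _x_at probe sets.

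The complexes that bind the CHR were mixed. Of 12 MuvB, DREAM and B-MYB genes 7 were lower (58.3%, beside 46.8% of all genes) and 5 higher. Their median was -0.16, which is 0.03 with the mean of probe sets. MYBL2, which encodes B-MYB, an activator of mitotic genes, read 1264 and 620 (-1.01), the only one of these 110 genes at least 2-fold lower. LIN9, a MuvB subunit, had 273 and 157 (-0.74). CDK inhibitors of G1 were compared for 4 of 7 genes, of which 3 were higher and 1 lower. Their median was 0.43, which is -0.12 when centred on the poly-A controls. CDKN1A, the inhibitor p21, read 765 on the control array and 1292 with miR-31 (0.74), whereas CDKN2D, the inhibitor p19, read 1088 and 649 (-0.73). Of 9 reference genes 4 were lower and 5 higher on the brightest probe set, from HPRT1 at -0.26 to GUSB at 0.28. On that probe set 0 were at least 20% lower or 25% higher. Their median of 0.11 lies below 0 after quantile normalization and after both spike-in centrings. Some of them disagreed between probe sets above the level minimum, which ran from -0.09 to 1.35 for YWHAZ. Those of B2M ran from 0.16 to 1.31, and those of TFRC from -0.04 to 0.63.

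**Figure D5:**
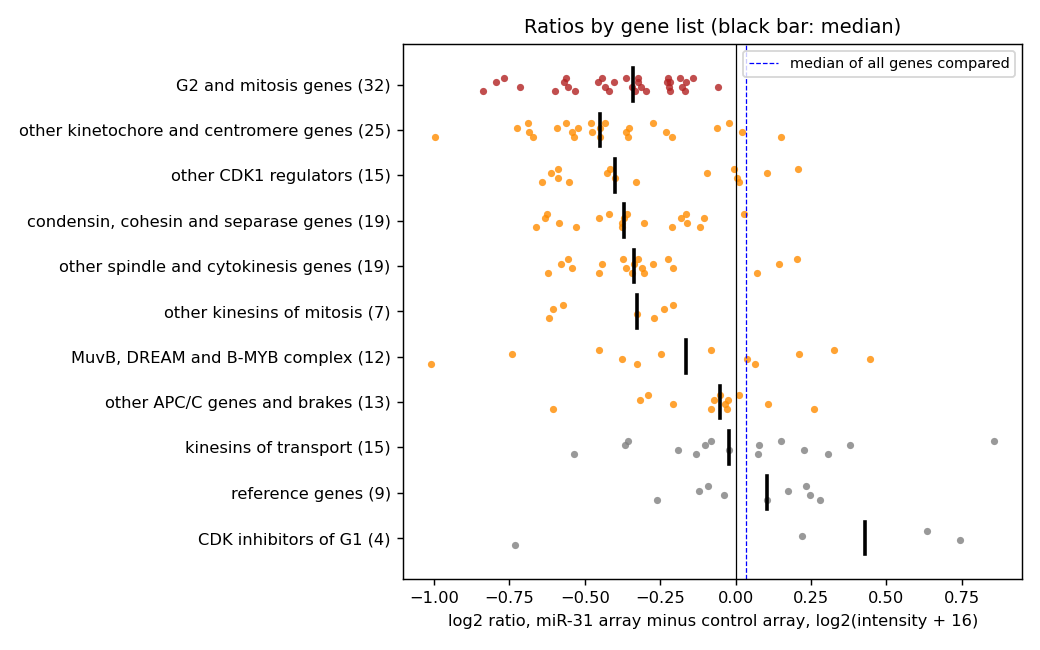
Log2 ratio of the miR-31 array over the control array (horizontal axis) for each gene of the 32 and of 10 further lists (rows, number of genes compared in brackets), with the median of each list as a black bar and that of all genes as a dashed line. On the brightest probe set of each gene, the medians of 5 other mitosis lists lie between -0.45 and -0.33, near the -0.34 of the 32 genes. Those of the MuvB, DREAM and B-MYB genes and of the other APC/C genes are -0.16 and -0.05. Transport kinesins sit at -0.02 and reference genes at 0.11.

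The mean after leaving out 2 percent of probe sets at each end was 500.1 on both arrays, as scaling to one target would give. The 3' to 5' intensity ratio was 0.95 and 1.01 for GAPDH and 2.39 and 2.17 for ACTB in the control and miR-31 arrays. Of 10 astroglial and glioma markers 7 passed the level minimum, and S100B, AQP4 and OLIG2 did not. The 10 summed to 106540 without and 99933 with miR-31. Log2 ratios above 0 were those of GFAP (0.85), SOX2 (0.39) and VIM (0.19), and NES (-0.91), FABP7 (-0.52), CD44 (-0.24) and SLC1A3 (-0.22) were below 0. Of 7 microglia, macrophage and lymphoid markers on the array 2 passed, with summed intensities of 243 without and 326 with miR-31 and PTPRC, named after its value was seen, at 30.1 and 17.0. Endothelial markers (2 of 4 passed) summed to 704 and 471, fibroblast markers (1 of 4) to 1844 and 1142, neuron markers (3 of 4) to 674 and 1039, and epithelial markers (2 of 4), most of it KRT18 (named likewise), to 6130 and 3158. Their part in the lower mitosis genes was not tested.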

How the data were processed

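Trizol-extracted total RNA of both cultures was amplified into biotinylated RNA for hybridisation, per the labels' protocols. The authors deposited linear intensity values of 54675 probe sets on each array, and their software is not stated in the sources at hand. The equal trimmed means are what scaling to one target would give, but no scaling is stated. No detection calls were used, so a dim value cannot be separated from background, and the number of arrays limits the precision.

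Values were taken as log2(intensity + 16), which understates the change of dim genes. Probe sets were named through the platform annotation: 41091 have 1 gene symbol, 1801 several and 11777 none here, and only the first were used. All 32 symbols matched RefSeq by Entrez identifier. The probe set with the highest mean level represented a gene, and a gene was compared if that mean reached the median of all probe sets. Genes at least 20% lower (or 25% higher) on this scale were counted, with 1.5-fold and 2-fold beside it. No test was run. The members, gene lists, motifs and folds were chosen with earlier results of these data known. All members were named, with the 2 genes of largest absolute ratio in each other list and the markers of the cell line; others are said to be chosen after their values were seen. A planned search for protein motifs was not run. The calculation was tested on simulated data. Alternatives were quantile normalization, centring on all probe sets or on either spike-in class, loess (span 0.3), pseudocounts of 1 and 64, other level filters, the mean of probe sets and leaving out _s_at and _x_at probe sets. Python 3.11.15, numpy 2.4.6, pandas 2.3.3, statsmodels 0.14.6 and matplotlib 3.10.9 were used.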

Additional observations from a re-analysis of the deposited data

How the results depend on the processing

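Of 344 values of single members under the alternatives 343 were below 0, the exception being HMMR after quantile normalization (0.0011). Many of these values could not have come out above 0. Each centring subtracts a value above 0 from ratios already below 0, and the level filters repeat the ratios unchanged. A pseudocount added to both arrays cannot change the sign of a ratio. Leaving out _s_at and _x_at probe sets repeats the ratio of every gene whose brightest probe set is of neither type. The median of the 32 genes, -0.34, lay between -0.38 and -0.29 under all alternatives other than the spike-in centrings, which gave -0.53 (hybridisation controls) and -0.89 (poly-A controls). The share of all genes under the same setting is given in brackets. The 19 genes at least 20% lower (17.8%) became 31 (33.1%) and 32 (68.7%) under the same centrings. They were 14 after quantile normalization (20.8%) and 14 after loess (19.9%). At a threshold of 1.5-fold they were 5 (6.73%) and at 2-fold 0 (1.58%). The stricter level filter left 31 of the 32 genes, without PLK1. Without _s_at and _x_at probe sets 25 were compared, 16 of them at least 20% lower, beside 17.7% of all genes. The median of the 4 CDK inhibitors, 0.43, was -0.12 when centred on the poly-A controls, a shift that applies to every gene by construction, and 0.22 with the stricter filter. No paired analysis was possible because a single array stands for each condition, which also means that none could be omitted.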

Other observations

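Promoter sequence was also set against the ratios of genes outside the 32. CCAAT and TTTGAA anywhere in the window were held by 552 array genes, of which 52.7% were lower with miR-31, with a median of -0.03, beside 46.3% and 0.04 for the 9135 others. With the other mitosis lists left out, 524 genes held both, and 50.6% were lower, with a median of -0.0025. A narrower position limit, chosen after the motif positions of the 32 had been seen, gave a wider gap. Outside the 32, 186 genes held CCAAT together with TTTGAA beginning between 50 bases before the start and 49 after it. Of these 60.2% were lower with miR-31 and 30.6% at least 20% lower, with a median of -0.11. Among the other 9501 genes 46.4% were lower and 17.0% at least 20% lower, with a median of 0.04. With the other mitosis lists left out too, 164 genes held the pair, of which 90 (54.9%) were lower and 41 at least 20% lower. Of the 9425 without the pair 4346 (46.1%) were lower and 1580 at least 20% lower. These are shares of genes read on 2 arrays and were not tested.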
